A study of Homo sapiens with 24 samples.

Results

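The H3K4me3 peaks of PANC-1 cells that received an siRNA against PHF13 and were treated with TGFβ (siPHF13+TGFβ) were compared with those of untreated cells that received a control siRNA (siControl). All 4 H3K4me3 samples labelled siControl or siPHF13_TGFb were taken, 2 libraries per group, of 24 samples in the series. Both groups were transfected, and TGFβ was given at 10 ng/ml for 48 h to the siPHF13 cells and not to the siControl cells. The groups therefore differ in the siRNA and in TGFβ at once, and the part of each cannot be told apart in this comparison. PANC-1 is an established line from a human pancreatic ductal carcinoma. Nothing in the labels says that the replicates were separate cultures, so p-values measure only the spread between these libraries.

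H3K4me3, the trimethylation of lysine 4 on histone H3, is placed by SET1 and MLL complexes around the start sites of genes, mostly at CpG-rich promoters. PHF13 is a protein with a PHD finger that binds this mark. TGFβ signals through receptor kinases to SMAD proteins, and in epithelial tumour cells it can set off epithelial-to-mesenchymal transition (EMT), in which junction and keratin genes are turned down and matrix and cytoskeleton genes are turned up. The comparison asks which H3K4me3 regions differ from those of untreated cells when TGFβ acts on cells depleted of PHF13.

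The names of peaks inside the lists go against the labels. In both lists labelled siPHF13+TGFβ the names carry NCT, which stands for siControl+TGFβ in the study, while in the lists labelled siControl+TGFβ they carry 3AT. Groups were taken from the labels. If the labels of the TGFβ-treated lists were exchanged, the lists compared here with siControl would be those of siControl+TGFβ cells, and the values with the other lists in their place are given beside the results. The numbers of peaks that the study tabulates by condition follow the labels, apart from a digit in siPHF13+TGFβ replicate 1. The siRNA acts on the transcript of PHF13, so H3K4me3 peaks do not check the depletion. Peaks within 5 kb of the PHF13 transcription start sites (TSSs; chromosome 1, 6673791 to 6684090, plus strand) covered 2637 and 3010 bp in siControl replicates 1 and 2 and 2205 and 3018 bp in siPHF13+TGFβ, and the groups overlapped. Of 6 ductal markers, 5 had peaks in all 4 lists, and KRT7, which encodes a keratin of ductal epithelium, had none in any of them. Of 11 markers of other cell types, 8 had no peak in any of the 4 lists and 0 had a peak in all of them.

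Overlapping or touching peaks of the 4 lists were joined, which gave 39495 merged regions. A region was called gained when both siPHF13+TGFβ lists and neither siControl list had a peak in it, and lost in the reverse case. By this rule 123 regions (0.311%) were gained and 458 (1.16%) were lost, whereas 21584 (54.7%) had a peak in all 4 lists. The sequences of 4 of these regions are shown to let their CpG content be seen, since the median of that content differed between these regions and those common to the 4 lists. Each is the 300 bases at the middle of the region in hg19, plus strand, with CG dinucleotides in capitals. Chosen were the largest gained region within 5 kb of a coding TSS and, of the largest 2 regions per class off chromosomes 8 and 18 with no annotated exon in these bases, a gained and a lost region outside genes and a lost region at a TSS.
gained, upstream of IGF2BP3: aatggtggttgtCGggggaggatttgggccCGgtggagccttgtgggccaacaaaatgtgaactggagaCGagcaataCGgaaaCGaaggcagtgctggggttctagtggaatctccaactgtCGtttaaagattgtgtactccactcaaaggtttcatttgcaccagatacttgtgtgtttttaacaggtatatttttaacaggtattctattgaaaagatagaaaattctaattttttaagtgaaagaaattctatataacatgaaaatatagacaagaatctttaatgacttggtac
gained, between genes near CA4: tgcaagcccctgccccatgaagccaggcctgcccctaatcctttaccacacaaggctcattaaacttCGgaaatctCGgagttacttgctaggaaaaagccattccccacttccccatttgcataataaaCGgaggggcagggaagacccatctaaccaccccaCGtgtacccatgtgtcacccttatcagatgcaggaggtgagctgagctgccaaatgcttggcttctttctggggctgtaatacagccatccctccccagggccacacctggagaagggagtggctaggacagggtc
lost, RBFOX3: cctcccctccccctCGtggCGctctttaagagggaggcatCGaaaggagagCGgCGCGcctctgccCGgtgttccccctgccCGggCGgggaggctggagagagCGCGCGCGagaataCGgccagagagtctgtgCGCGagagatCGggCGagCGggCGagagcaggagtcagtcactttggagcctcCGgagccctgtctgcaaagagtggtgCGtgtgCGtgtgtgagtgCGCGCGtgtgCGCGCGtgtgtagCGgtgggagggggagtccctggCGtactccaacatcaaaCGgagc
lost, between genes near BCL6: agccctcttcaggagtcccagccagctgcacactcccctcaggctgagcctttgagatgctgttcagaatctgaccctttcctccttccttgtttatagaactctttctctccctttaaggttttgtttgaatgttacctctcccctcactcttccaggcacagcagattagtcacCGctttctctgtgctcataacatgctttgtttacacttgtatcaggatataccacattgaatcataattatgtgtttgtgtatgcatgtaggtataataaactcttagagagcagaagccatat

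The IGF2BP3 sequence (chr7:23511359-23511658) lies upstream of the gene for an mRNA-binding protein, in a region 1083 bp from its nearest coding TSS, and held 6 CG dinucleotides. The sequence near CA4 (chr17:58219821-58220120) lies in a region outside genes, 6983 bp from the nearest coding TSS, that of a carbonic anhydrase, and held 4. The RBFOX3 sequence (chr17:77179564-77179863) belongs to a region that holds a TSS of this neuronal splicing factor gene, and its 32 CG dinucleotides make it the exception among those shown. The sequence nearest to BCL6 (chr3:187631461-187631760) belongs to a region 167572 bp from the TSS of that transcriptional repressor gene and held 1.

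The siPHF13+TGFβ lists were not separated from the siControl lists in size. The siControl lists held 30770 and 35417 peaks (replicates 1 and 2), and the siPHF13+TGFβ lists held 27869 and 33491. They covered 29.3 and 36.9 Mb in siControl and 24.9 and 34.9 Mb in siPHF13+TGFβ. Replicate 1 was the shorter list in both groups, siPHF13+TGFβ replicate 1 was the shortest of the 4, and the groups overlapped. The length covered differed by -0.16 on the log2 scale, within a pooled SD of 0.30 (exact two-sided permutation test, n = 2, p = 0.667), and 2 libraries against 2 cannot reach a p below 0.333. Without siPHF13+TGFβ replicate 1 the difference was 0.085, and without siControl replicate 2 it was 0.0049, so its direction rests on these lists. The siControl+TGFβ lists, in place of those labelled siPHF13+TGFβ, differed from siControl by 0.25. The lists hold no read counts, so their depth is unknown.

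Median peak widths were 807 and 913 bp in siControl and 773 and 922 bp in siPHF13+TGFβ, and these also overlapped (exact permutation p = 1). Peaks within 5 kb of a coding TSS made up 63.9% and 52.4% of the siControl lists and 67.8% and 54.9% of the siPHF13+TGFβ lists. The shorter list of each group was the one more concentrated at promoters, and the group difference of 3.22 percentage points lay within the spread of the libraries (pooled SD 8.66, exact permutation p = 0.667). Peaks further away numbered 11115 and 16872 in siControl and 8970 and 15114 in siPHF13+TGFβ. Of 19794 coding genes, 14659 and 15123 had a peak within 5 kb of a TSS in siControl and 14508 and 14970 in siPHF13+TGFβ (exact permutation p = 0.667). Broad peaks varied most between replicates: 2572 and 3881 peaks of 2000 bp or wider were found in siControl, and 1307 and 3680 in siPHF13+TGFβ. Peaks of 3000 bp or wider numbered 48 and 203 against 5 and 191. In none of these measures did the groups separate.

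**Figure D1:**
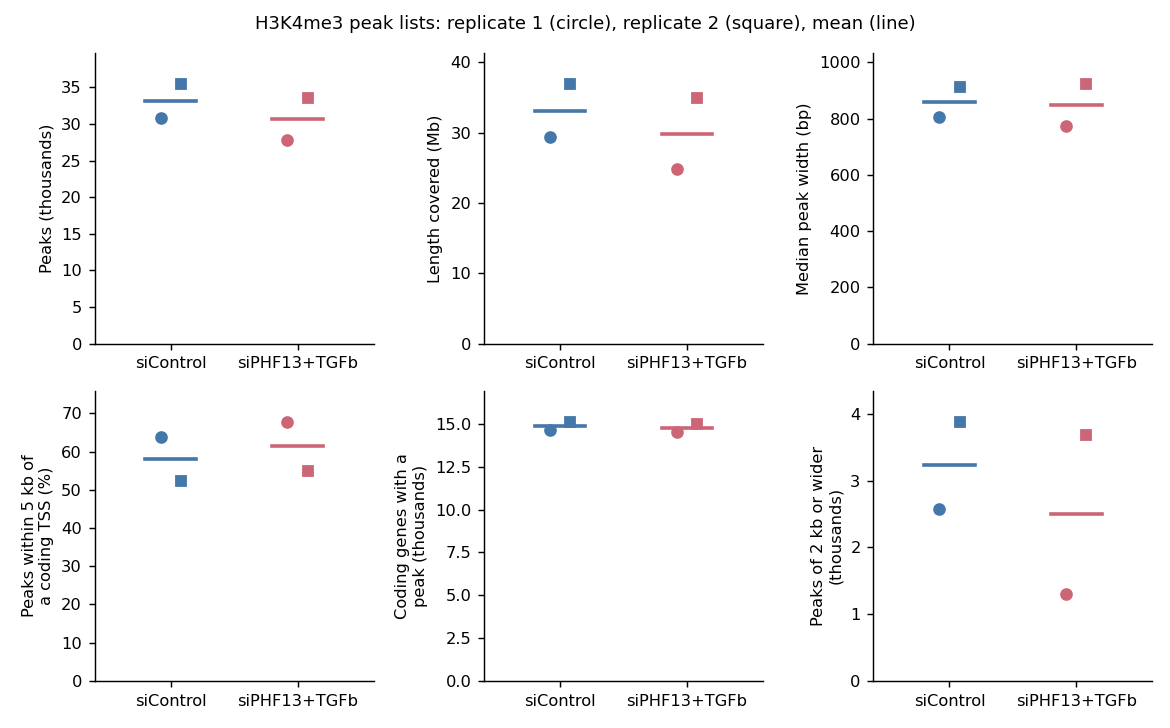
Values per H3K4me3 list for siControl and siPHF13+TGFβ, each panel with its own unit from 0: peaks, Mb covered, median peak width in bp, share of peaks within 5 kb of a coding TSS, coding genes with a peak, and peaks of 2 kb or wider. Circles are replicate 1, squares replicate 2 and lines the group means; the replicates of a group lie further apart than the means in every panel.

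In shared bases, the lists did not group by condition. The Jaccard index, the bases shared by a pair of lists as a fraction of the bases that either holds, was 0.704 between the siControl replicates and 0.671 between the siPHF13+TGFβ replicates. Between groups it ran from 0.640 to 0.796, and the highest value was that of both replicates 2. Regions with a peak in a single list show the same unevenness: 5142 regions were found in siControl replicate 2 alone and 3040 in siPHF13+TGFβ replicate 2 alone, against 1146 and 561 in the replicates 1. A further 3350 regions had peaks in both replicates 2 and in neither replicate 1, against 19 with the reverse pattern. The gained and lost regions are thus fewer than those that separate the replicate numbers.

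**Figure D2:**
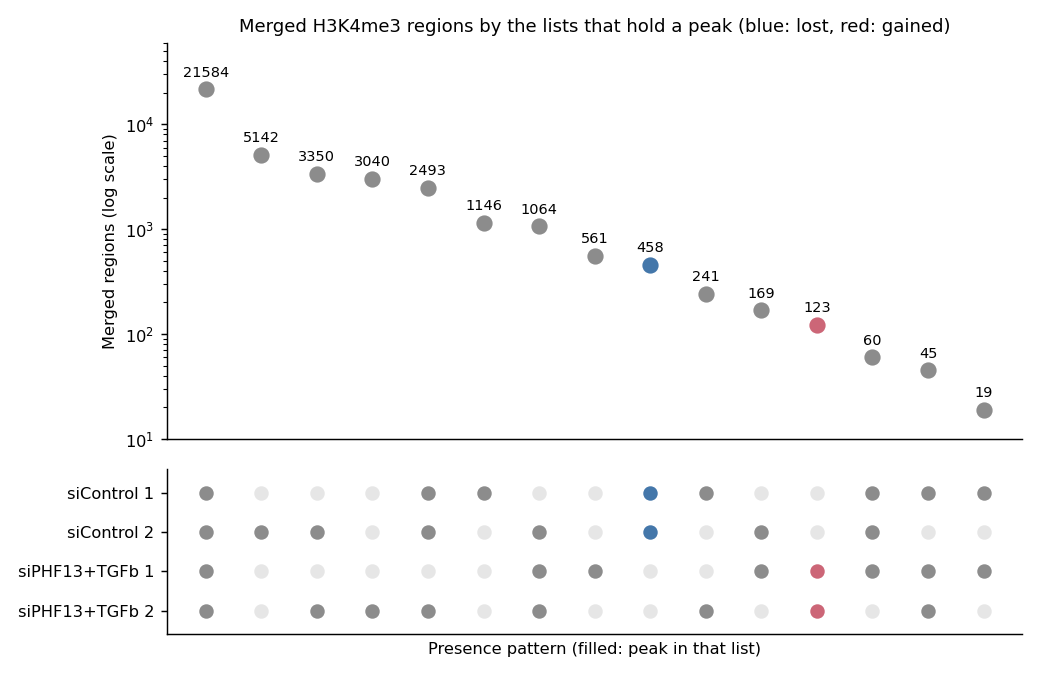
Number of merged H3K4me3 regions (log scale) for each pattern of presence over the 4 lists, with the lists that hold a peak filled below. Regions in all 4 lists number 21584, those lost 458 (blue) and those gained 123 (red).

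The counts depend on single lists, and leaving one out relaxes the rule, since a region must then be absent from or present in fewer lists. Gained regions numbered 1248 without siControl replicate 2, 3182 without siPHF13+TGFβ replicate 1 and 765 without siPHF13+TGFβ replicate 2. Lost regions numbered 5645 without siControl replicate 1, 2010 without siControl replicate 2, 521 without siPHF13+TGFβ replicate 1 and 3003 without siPHF13+TGFβ replicate 2. Gained regions therefore made up 85.9% of the calls without siPHF13+TGFβ replicate 1, the shortest list, and the balance between lost and gained regions turned. With every list reduced to its strongest peaks so that all had the length of the shortest, 240 regions were gained and 339 lost, so that gained regions made up 41.5% of the calls instead of 21.2%. With the siControl+TGFβ lists in place of those labelled siPHF13+TGFβ, 1654 regions were gained and 104 lost against the same siControl lists. The difference between the 2 pairs of treated lists was not tested.

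Gained and lost regions were mostly away from promoters. Of the 123 gained regions, 26 (21.1%) lay within 5 kb of a coding TSS, 54 (43.9%) in a gene but further from a coding TSS, and 43 (35.0%) outside genes. Of the 458 lost regions, 82 (17.9%) lay within 5 kb, 239 (52.2%) further away in a gene and 137 (29.9%) outside genes. Among all merged regions 47.5% lay within 5 kb of a coding TSS, and among those in all 4 lists 69.7% did. A coding TSS lay inside 5 gained (4.07%) and 16 lost regions (3.49%), against 34.5% of all merged regions. More than 50 kb from any coding TSS were 36.6% of gained and 33.0% of lost regions, against 21.8% of all merged regions.

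They were also narrow and weak within their lists. The rule favours such regions, since peaks near the calling limit are the likeliest to be missing from a list. Their merged widths also join fewer lists than those of the common regions. Merged widths had a median of 321 bp for gained and 436.5 bp for lost regions, against 903 bp over all merged regions and 1552 bp over those in all 4 lists. Peaks were ranked within each list by their −log10 q, so that 100 is the strongest. Gained regions had median rank percentiles of 12.7 and 17.8 in the siPHF13+TGFβ lists, and lost regions 11.6 and 18.4 in the siControl lists. Regions common to the 4 lists had medians from 60.2 to 69.2.

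Their sequences were poor in CpG. In the 300 bases at the region's middle, the median GC content was 45.3% for gained and 46.3% for lost regions, and 54.7% over all merged regions. The median ratio of observed to expected CG dinucleotides was 0.293 and 0.322, against 0.526 over all regions and 0.721 over those in all 4 lists. Among regions more than 5 kb from a coding TSS the ratio was 0.256 for gained, 0.313 for lost and 0.344 for all merged regions.

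Binding motifs of transcription factor families linked to EMT and TGFβ were counted in the same 300 bases on both strands, and none of the motifs contains another. TGANTCA, the motif of AP-1, the JUN and FOS dimers, was found in 106 lost regions (23.1%) and 17 gained regions (13.8%), against 11.4% of all merged regions. Among regions more than 5 kb from a coding TSS it was found in 23.7% of lost, 14.4% of gained and 17.0% of all merged regions. Among those within 5 kb it was found in 20.7% of lost, 11.5% of gained (3 of 26) and 5.19% of all merged regions. CACCTG, an E-box that SNAI and ZEB factors bind, was found in 24.7% of lost, 17.1% of gained and 22.3% of all merged regions. Within 5 kb of a coding TSS these shares were 35.4%, 34.6% and 23.6%, and further away 22.3%, 12.4% and 21.2%. GGAATG, the TEAD motif, was found in 16.6% of lost, 22.0% of gained and 15.2% of all merged regions. GTCTAGAC, a palindromic SMAD element, was in 0 gained and 0 lost regions and in 58 of all merged regions (0.147%). The sequence shown near BCL6 holds a TGANTCA match, and that near CA4 holds CACCTG and GGAATG matches. A match is a stretch of letters and not a bound site.

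Peaks of 2 other modifications of the same cells were set against the gained and lost regions, and most of these had neither modification in both siControl lists. H3K27ac, the acetylation of active promoters and enhancers, was present without H3K27me3 in both siControl lists at 24 gained (19.5%) and 73 lost regions (15.9%), against 33.5% of all merged regions. H3K27me3, the Polycomb mark, was present without H3K27ac in both siControl lists at 18 gained (14.6%) and 39 lost regions (8.52%), against 12.2%. H3K27ac and H3K27me3 were both present in both siControl lists at 9 gained (7.32%) and 5 lost regions (1.09%), against 2.13%. Neither was present in both siControl lists at 72 gained (58.5%) and 341 lost regions (74.5%), against 52.2%. In the siPHF13+TGFβ H3K27ac lists, peaks overlapped 11 and 88 gained regions and 22 and 178 lost regions in replicates 1 and 2. For gained regions these were 8.94% and 71.5%, and for lost regions 4.80% and 38.9%, against 12.6% and 58.0% of all merged regions. In siControl+TGFβ replicate 1, H3K27ac peaks overlapped 84 gained regions (68.3%), against 60.6% of all merged regions. In siControl+TGFβ replicate 2 they overlapped 57 gained regions (46.3%), against 48.0% of all merged regions, so the replicates differed in direction. These shares were not tested.

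The siControl+TGFβ lists, which share no library with the calls, had peaks in most of the lost regions. Of 458 lost regions, 284 (62.0%) had a peak in both siControl+TGFβ lists, 118 (25.8%) in 1 and 56 (12.2%) in none. Of 123 gained regions, 57 (46.3%) had a peak in both, 36 (29.3%) in 1 and 30 (24.4%) in none. Of all merged regions 75.8% had a peak in both and 13.8% in none.

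**Figure D3:**
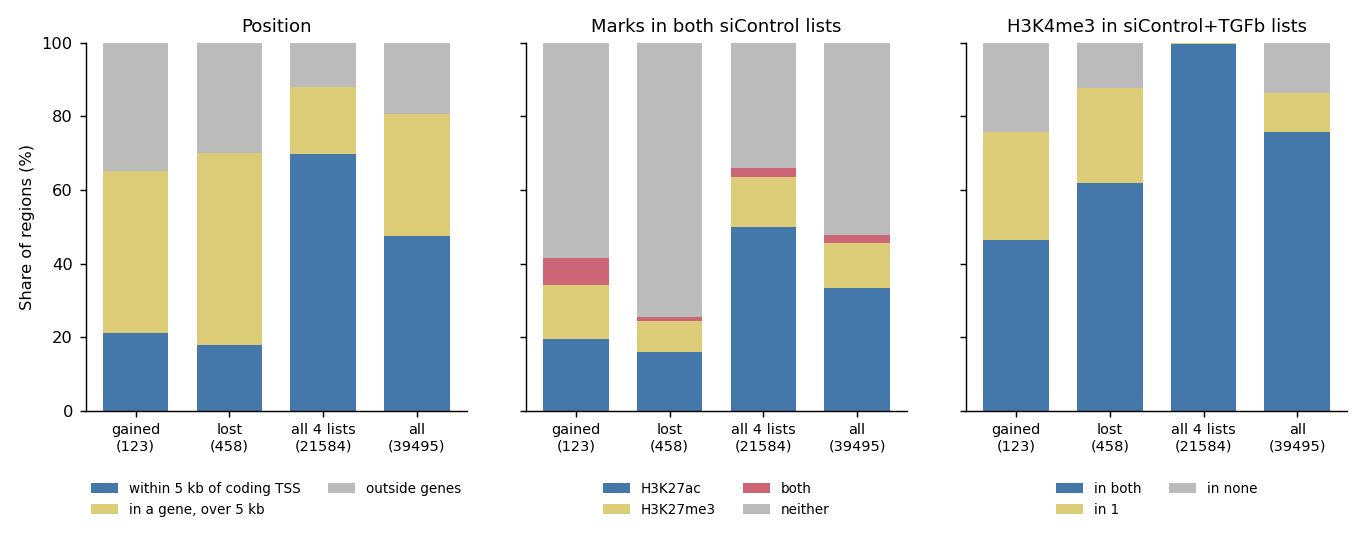
Share of gained, lost, common (all 4 lists) and all merged regions, in percent, by position, by H3K27ac and H3K27me3 peaks in both siControl lists, and by the number of siControl+TGFβ lists with an H3K4me3 peak; numbers of regions stand under the bars. Gained and lost regions have the smallest share within 5 kb of a coding TSS (21.1% and 17.9%).

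Among single gained regions, the largest in a gene lay on chromosome 9 (36802035 to 36802819) in an intron of an lncRNA gene, ENSG00000287514, and covered 550 and 785 bp in the siPHF13+TGFβ lists. Next came a region in an intron of CDC42EP4, which encodes an effector of the GTPase CDC42 (chromosome 17, 71287817 to 71288764), with 252 and 948 bp. The third, with 417 and 497 bp, overlapped an exon of the lncRNA gene ENSG00000258082 (chromosome 1, 235113981 to 235114591). All 3 also had peaks in both siControl+TGFβ lists. Outside genes, the largest gained region lay 1291112 bp from the nearest coding TSS (chromosome 3, 90447938 to 90448548) and covered 434 and 611 bp. It had H3K27ac and H3K27me3 peaks in both siControl lists of each mark. Regions were not filtered for repeated sequence here, so the assignment of reads to it is uncertain. Within 5 kb of a coding TSS, the largest lay near IGF2BP3 (250 and 632 bp), SLC39A9, a zinc transporter gene (236 and 637 bp), and ZFX, an X-linked zinc finger gene (249 and 577 bp). A gained region 325 bp from a coding TSS of DUSP1 (chromosome 5, 172198523 to 172199018), the gene of a MAP kinase phosphatase, was picked out after its values were seen and covered 277 and 496 bp. The DUSP1 gene itself was not gained, because other peaks lay in its window.

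Among lost regions, the largest lay in an intron of GRHL2, which encodes a transcription factor of epithelial cells (chromosome 8, 102513629 to 102514972, 8643 bp from a coding TSS). It covered 467 and 1344 bp in siControl, 0 in both siPHF13+TGFβ lists, and 1162 and 832 bp in the siControl+TGFβ lists. Next in genes were regions in BPGM, for an enzyme of red cell glycolysis (447 and 917 bp in siControl), and RAC2, for a GTPase of blood cells (458 and 881 bp). Outside genes they were nearest to ARID5B (580 and 851 bp), BCL6 (286 and 1052 bp) and HAPSTR1 (584 and 681 bp). Within 5 kb of a coding TSS, lost regions held a TSS of RSAD2, an interferon-induced antiviral gene (478 and 793 bp), and of GAL3ST1, a sulfotransferase gene (349 and 890 bp). In each of these 8 regions, siControl replicate 2 had more bp than replicate 1.

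Few coding genes gained or lost their last H3K4me3 peak. Counted over windows of 5 kb around all coding TSSs of a gene, 5 coding genes were gained (0.0253% of 19794) and 22 were lost (0.111%). The gained genes were SERPING1, the gene of the C1 inhibitor of complement (0 and 0 bp in siControl, 307 and 396 bp in siPHF13+TGFβ), HOGA1, for a mitochondrial aldolase of hydroxyproline breakdown (165 and 409 bp in siPHF13+TGFβ), MTRNR2L6, and the neighbours CDHR5, for a brush border protocadherin, and SCT, for the hormone secretin. CDHR5 and SCT share 1 peak, of 157 and 181 bp. MTRNR2L6 (170 and 208 bp) resembles mitochondrial DNA, and reads from such copies are uncertain. Of the 5, 3 also had a peak in both siControl+TGFβ lists, and MTRNR2L6 had one in neither.

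Of the lost genes, the 10 with the most covered bp in the siControl lists follow. GAL3ST1 covered 349 and 890 bp there, and AQP7, an aquaglyceroporin gene, 252 and 980 bp. RBFOX3 covered 443 and 764 bp, and TNFSF13B, for the B-cell factor BAFF, 349 and 783 bp. RAET1L, for an NKG2D ligand, covered 443 and 676 bp, RGPD1 493 and 498 bp, and GRIFIN, for a lens galectin-related protein, 431 and 536 bp. RGPD1 has near-identical copies, so its peaks are uncertain. BSND, for a subunit of kidney chloride channels, covered 148 and 731 bp, and the neighbouring lipocalin genes LCN15 and LCN8 shared a peak of 153 and 697 bp. All 10 were at 0 bp in both siPHF13+TGFβ lists, and all 10 had peaks in both siControl+TGFβ lists.

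The other 12 lost genes were FAAH2, CHRM2, FUT2, PVRIG, ST18, AL109927.1, PCDHB3, GPIHBP1, TCP11, SULT2B1, KRTAP10-4 and TM4SF4. Over all 22, 16 (72.7%) had a peak in both siControl+TGFβ lists and 1, TM4SF4, in neither, against 75.7% and 22.7% of all coding genes. H3K27me3 peaks lay in the windows of 8 and 16 of the 22 in the siControl replicates and of 6 and 12 in the siPHF13+TGFβ replicates, against 32.5%, 44.4%, 24.5% and 36.1% of all coding genes. H3K27ac peaks lay in 1 and 1 and in 0 and 6 of them, against 50.1%, 57.7%, 21.2% and 62.4% of all coding genes. The counts of genes rest on single lists too: 84 genes were gained without siControl replicate 2, 66 without siPHF13+TGFβ replicate 1 and 16 without siPHF13+TGFβ replicate 2. Lost genes numbered 209 without siControl replicate 1, 38 without siControl replicate 2, 26 without siPHF13+TGFβ replicate 1 and 237 without siPHF13+TGFβ replicate 2. Gained genes outnumbered lost genes without siControl replicate 2 and without siPHF13+TGFβ replicate 1, so the direction rests on these lists. With the siControl+TGFβ lists in place of those labelled siPHF13+TGFβ, 65 genes were gained and 2 lost.

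**Figure D4:**
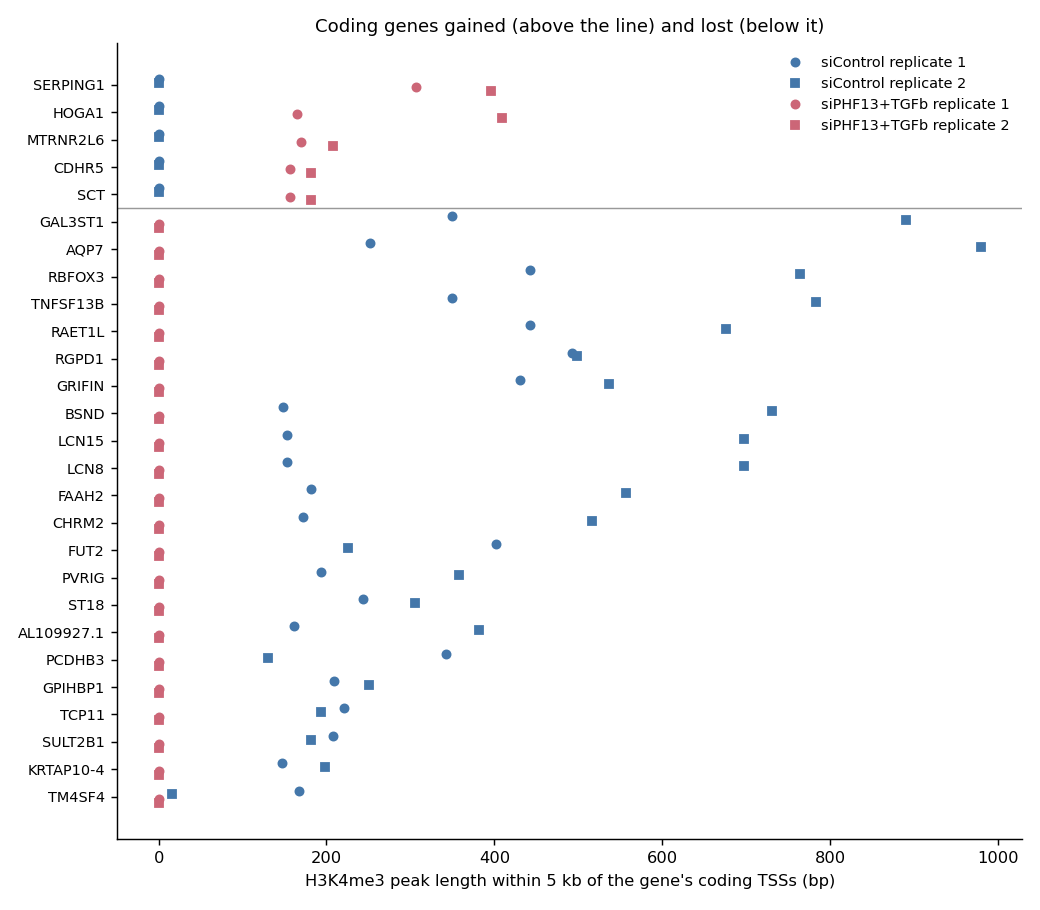
H3K4me3 peak length in bp within 5 kb of the coding TSSs of the 5 gained genes (above the line) and the 22 lost genes (below it) in each of the 4 lists, siControl in blue and siPHF13+TGFβ in red. The largest value is 980 bp, for AQP7 in siControl replicate 2.

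Where all 4 lists had a peak, widths were not told apart by the test. In these 21584 regions, the median width was 1305.5 and 1422 bp in siControl and 1116 and 1400 bp in siPHF13+TGFβ. The median change of the log2 width was -0.10, with 5225 regions wider and 16359 narrower in siPHF13+TGFβ. Centring each list on its median, which by construction brings the balance near to even, gave 12011 wider and 9573 narrower regions and a median change of 0.02. By limma with Benjamini-Hochberg adjustment, 0 regions (0%) had an adjusted p under 0.05. Before adjustment, 19 regions with p under 0.05 were wider (0.088%) and 125 narrower (0.579%), and after centring these were 90 wider and 170 narrower. The direction rests on single lists: without siPHF13+TGFβ replicate 1 the median change was 0.05, with 15237 regions wider and 8917 narrower. Without siControl replicate 2 it was -0.05, but 325 regions with an unadjusted p under 0.05 in limma were wider and 22 narrower. Groups did not overlap in 622 regions (2.88%) that were wider and 4272 (19.8%) that were narrower.

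Strength within the lists was not told apart either. The rank percentile of a region's strongest peak had a median change of -2.44 percentile points, and limma called 0 regions (0%). At an unadjusted p under 0.05, 57 regions were higher (0.264%) and 359 lower (1.66%). The groups did not overlap in 1545 regions that were higher (7.16%) and 4335 that were lower (20.1%). The median change was 0.68 percentile points without siPHF13+TGFβ replicate 1, 0.0080 without siControl replicate 2 and -0.24 at equal list length, so its direction rests on these lists too.

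Median changes of width were below 0 in every class of region. The median log2 change was -0.09 in 15043 regions within 5 kb of a coding TSS, -0.15 in 3942 further away in genes and -0.12 in 2599 outside genes. By siControl modification it was -0.09 in 10786 regions with H3K27ac alone, -0.15 in 2930 with H3K27me3 alone, -0.13 in 7324 with neither and -0.01 in 544 with both. From the narrowest to the widest of 4 classes of equal size it was -0.14, -0.13, -0.10 and -0.08, and in the widest 3% (mean width from 2500 to 3826.25 bp) it was -0.08. In that broadest class the median width was 2657 and 2859 bp in siControl and 2398 and 2858 bp in siPHF13+TGFβ. In each class named except that with both modifications, the exact permutation test over the libraries' medians gave p = 0.667, and there it gave p = 1. The same classes in siControl+TGFβ against the shared siControl lists had median changes from 0.02 to 0.22.

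The regions with the largest changes and groups that did not overlap were led on the narrow side by a region over a TSS of TPM1, a tropomyosin gene (chromosome 15, 63340727 to 63341934). It covered 1105 and 1208 bp in siControl and 160 and 320 bp in siPHF13+TGFβ, a log2 change of -2.35 with an SE of 0.40 (limma, adjusted p = 1.00). Its rank percentile was 51.1 and 58.7 in siControl and 2.35 and 32.8 in siPHF13+TGFβ. Next were regions 43862 bp from SPSB1 (508 and 1142 bp against 195 and 164 bp), in FNDC3B (1075 and 1460 bp against 194 and 527 bp), at the CPVL promoter (669 and 1431 bp against 164 and 444 bp) and in NRG1, the neuregulin gene (664 and 942 bp against 179 and 300 bp). On the wide side, the log2 changes were smaller, the lowest of the 5 being 1.16. These regions were nearest to EYA2 (201 and 554 bp against 596 and 1086 bp), ACTN4 (240 and 605 bp against 615 and 1351 bp), ATP11A (251 and 187 bp against 430 and 597 bp), HOXB8 (150 and 274 bp against 320 and 647 bp) and ADD2 (147 and 534 bp against 630 and 619 bp). None of these 10 passed the adjusted threshold in limma.

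At the level of genes, peak length within 5 kb of coding TSSs was tested for the 14950 coding genes with a peak in at least 2 of the 4 lists, as log2(bp + 100). By limma 0 genes (0%) passed an adjusted p under 0.05. At an unadjusted p under 0.05, 10 genes were longer (0.0669%) and 89 shorter (0.595%). Groups did not overlap in 287 genes that were longer (1.92%) and 3059 that were shorter (20.5%), and the median log2 change over all genes tested was -0.09. Random orders of 2 libraries against 2 separate the groups, in either direction, in a share of 0.333. This share counts longer and shorter genes alike, so it is not the reference for a single direction, here or in the gene lists. Without siPHF13+TGFβ replicate 1 the median was 0.03, with 9144 genes above 0 and 5786 below. Without siControl replicate 2, 154 genes were longer and 14 shorter at an unadjusted p under 0.05 in limma. The direction of the values given for gene lists rests on these lists of peaks. With the smaller pseudocount of 10 bp, 10 genes passed, 4 longer and 6 shorter. They were SERPING1, MTRNR2L6, CDHR5 and SCT, and RGPD1, TCP11, GRIFIN, ST18, GPIHBP1 and SULT2B1, all among the gained and lost genes. Such genes are by rule at 0 bp in both lists of a group, with no spread there. The smaller pseudocount enlarges that step, for RGPD1 from a log2 change of -2.57 to -5.66. These passes therefore reuse the call and give it no further support. With no filter only RGPD1 passed.

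The genes that the study takes as examples, a list not independent of these samples, had peaks in all 4 lists. Groups did not overlap in 2 of 13 (15.4%), both shorter, against 20.5% shorter and 1.92% longer among all genes tested. CDH1, the E-cadherin gene, covered 1517 and 1502 bp in siControl and 1157 and 1410 bp in siPHF13+TGFβ, a log2 change of -0.22 with an SE of 0.14. PAPLN, for the matrix protein papilin, covered 1313 and 1578 bp against 981 and 1230 bp (-0.36 with an SE of 0.18). Both were lower in siPHF13+TGFβ, and neither passed limma's adjusted threshold. The mesenchymal genes overlapped between groups: CDH2, the N-cadherin gene, covered 1633 and 2861 bp against 1676 and 3042 bp, and COL1A1, for type I collagen, 1428 and 1890 bp against 1422 and 1998 bp. SNAI1, the EMT repressor gene, covered 1912 and 3257 bp against 1371 and 2912 bp, and MMP9, for a gelatinase, 210 and 872 bp against 54 and 768 bp. EPCAM, SOX9, MMP2, MMP17, ITGA2 and PCDHB8 overlapped as well, with log2 changes from -0.25 in SOX9 to 0.24 in PCDHB8.

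Among 18 EMT transcription factor genes, 2 were shorter with groups that did not overlap (11.1%, against 20.5% of all genes tested), and the median log2 change was -0.22 beside -0.09 for all genes tested. TWIST1 covered 214 and 382 bp in siControl and 0 and 77 bp in siPHF13+TGFβ, with an unadjusted p of 0.0194 and an adjusted p of 1.00 in limma. TCF4 covered 1246 and 2287 bp against 569 and 1221 bp. In the siControl+TGFβ lists TWIST1 covered 333 and 394 bp. TWIST1 was thus at its lowest in both siPHF13+TGFβ lists, without passing the adjusted test.

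Of 48 epithelial junction and keratin genes tested, 12 were shorter with groups that did not overlap and 0 longer, beside 20.5% and 1.92% of all genes, and the median change was -0.16. ELF3, for an epithelial ETS factor, covered 789 and 1116 bp in siControl and 172 and 629 bp in siPHF13+TGFβ. MAL2, for an apical trafficking protein, covered 1276 and 1116 bp against 602 and 1075 bp, OCLN, for occludin, 3242 and 2958 bp against 1965 and 2856 bp, and LLGL2, for a polarity protein, 1850 and 1864 bp against 1378 and 1617 bp. In each of these, siPHF13+TGFβ replicate 1 had the lowest value of the 4 lists.

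Among mesenchymal genes, SMAD targets and pathway components, the shares that were shorter without overlap were 8.33%, 7.89% and 8.11%, against 20.5% of all genes tested. Of 60 mesenchymal and matrix genes tested, 5 were shorter and 1 longer without overlap, with a median change of -0.09, or 0.01 after centring. The shorter ones named by size were ADAMTS1, a secreted protease gene (2995 and 3679 bp against 1479 and 2866 bp), LOXL1, MYL9 and ADAMTS6. Of 38 TGFβ-SMAD targets, 3 were shorter and 1 longer, with a median change of -0.13. JUNB, an AP-1 gene induced by TGFβ, covered 2427 and 3323 bp in siControl and 1168 and 2384 bp in siPHF13+TGFβ. SKIL, for the SMAD repressor SnoN, covered 2225 and 2523 bp against 2118 and 2049 bp, and ID4 1454 and 1388 bp against 1271 and 1380 bp. NEDD9, for a focal adhesion scaffold, was the longer one, with 962 and 1093 bp against 1110 and 1290 bp. Of 37 pathway components, 3 were shorter, among them ACVR2A, an activin receptor gene, and TGFBR3, the betaglycan gene. TGFBR3 covered 2180 and 2930 bp against 1753 and 2014 bp. The median change of the components was -0.09, or 0.00 after centring.

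The AP-1 and ATF genes had the largest share of non-overlapping groups among the lists, 7 of 23 tested (30.4%, against 20.5% of all genes), all shorter, with a median change of -0.18. They included JUNB, as above, FOSL1 (2372 and 2687 bp in siControl against 1992 and 2178 bp in siPHF13+TGFβ) and ATF6B (2817 and 2864 bp against 2068 and 2811 bp). The log2 changes of JUNB, FOSL1 and ATF6B were -0.73, -0.27 and -0.23. Without siPHF13+TGFβ replicate 1 they were -0.24, -0.20 and -0.01. No gene of the list had an unadjusted p under 0.05 in limma. Of 30 RAS-ERK feedback and target genes, 4 were shorter (13.3%): EREG, the epiregulin gene (2231 and 2541 bp against 711 and 1875 bp), DUSP2, NRAS and ETV4. ETV4 covered 2189 and 2166 bp against 2078 and 2160 bp, a log2 change of -0.04, or 0.06 after centring. Of 26 NF-κB targets, 3 were shorter (11.5%): CXCL3, CXCL1 and RELA.

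Clustered protocadherin beta genes went both ways. PCDHB3 was lost (342 and 130 bp in siControl), PCDHB2 was shorter (1413 and 1198 bp against 1049 and 1031 bp) and PCDHB7 was longer (59 and 110 bp against 158 and 237 bp, unadjusted p = 0.0437, adjusted p = 1.00 in limma). Of 12 tested, 6 had a change above 0 and 6 below, and the median was -0.02, or 0.07 after centring. These genes are similar in sequence and lie close together, so windows share peaks and the assignment of reads is uncertain.

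Against 20.5% shorter and 1.92% longer among all genes tested, the groups did not overlap in the remaining lists in 13 of 46 cell cycle genes (28.3%), among them PLK1, TTK, CDC25A and PLK4, in 18 of 76 ribosomal protein genes (23.7%) that were shorter and a further 1 that was longer (RPS13), and in 11 of 48 H3K4 and Polycomb genes (22.9%), among them EED and MTF2 of Polycomb complexes and CXXC1 of the SET1 complex. In 7 of 62 axon guidance genes (11.3%), 3 of 28 apoptosis genes (10.7%) and 2 of 22 pancreatic lineage and squamous genes (9.09%) they did not overlap either. RPS13 apart, these genes were shorter in siPHF13+TGFβ. The lineage genes were TP63, the squamous regulator (810 and 1021 bp in siControl against 462 and 661 bp in siPHF13+TGFβ), and AGR2, a secretory pathway gene (1606 and 1845 bp against 1313 and 1358 bp). Median changes of these lists ran from -0.15 in axon guidance to -0.08 in ribosomal protein genes. After centring they ran from -0.06 to 0.01, with the ribosomal and apoptosis lists above 0. No gene in any list passed an adjusted p under 0.05.

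**Figure D5:**
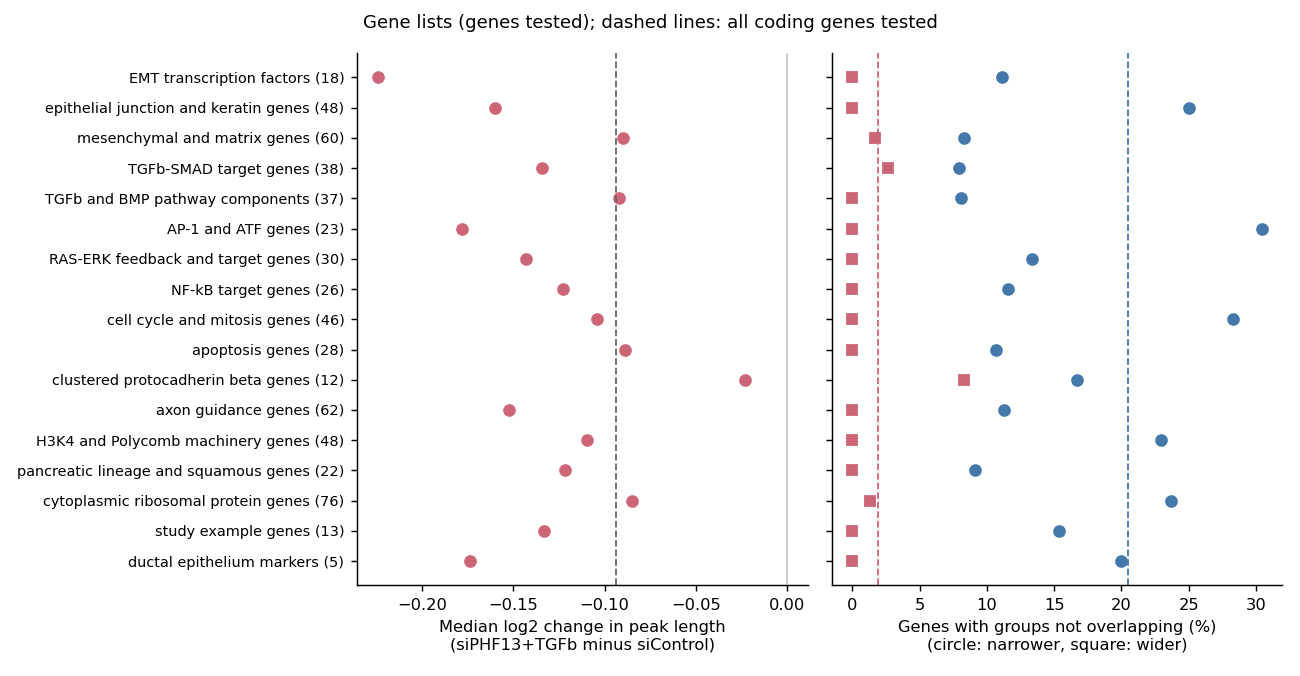
Median log2 change in H3K4me3 peak length per gene list (left, siPHF13+TGFβ minus siControl) and percent of its genes whose groups did not overlap (right, circles shorter, squares longer), with numbers of genes tested in brackets. Dashed lines give all 14950 genes tested, at -0.09, 20.5% and 1.92%; every list median lies below 0, before centring.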

How the data were processed

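ChIP-seq peak lists of H3K4me3 in PANC-1 cells were analysed, 2 libraries each of siControl and siPHF13+TGFβ. Per the submitters' processing notes, the authors used Trim Galore 0.4.1, Bowtie2 2.4.1, Picard and MACS2 2.2.7.1 on hg19, and peaks were called per library. The deposited columns used were the fold enrichment, a ratio over input, and the −log10 of the q-value, both as the authors deposited them. The lowest −log10 q in these lists was 1.30, below the limit that the study's methods state. The lists hold no read counts, so depth is unknown, and a deeper library gives more and wider peaks. The peak number that the study lists for siPHF13+TGFβ replicate 1 differs from the deposited list, which was used.

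Coordinates are hg19, 1-based. TSSs were those of protein-coding transcripts in GENCODE 44 (GRCh37 version), and sequences came from GRCh37. Presence in a library meant that 1 bp or more of the region was covered. Widths (log2 bp), rank percentiles and gene peak lengths (log2(bp + 100)) were tested with limma 3.58.1 in R 4.3.3, without a replicate block, over the 4 libraries, with Benjamini-Hochberg adjustment at 0.05. Per-library values were compared by an exact two-sided permutation test. Interval work used Python 3.11.15 with NumPy 2.4.6, and the scripts were tested on simulated data. Lists of siControl+TGFβ, H3K27ac and H3K27me3 served as description only, and the 6 inputs were not analysed here.

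Genes named were the study's examples, the coding genes with the most bp, up to 10 gained (5 were found) and 10 lost, up to 4 genes per list (gained or lost first, then by size of change among groups that did not overlap), the 3 largest gained and lost regions per position class and the 5 most widened and 5 most narrowed regions whose groups did not overlap. Members, gene lists and tests were chosen with earlier results of these data known. The exchange of the TGFβ-treated lists was added after seeing the data. Some genes that the rule names are not reported here.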

Additional observations from a re-analysis of the deposited data

How the results depend on the processing

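Of the length covered, direction turned without siControl replicate 2 and without siPHF13+TGFβ replicate 1, the 4 values with 1 library left out running from -0.40 to 0.085 (log2), and with the siControl+TGFβ lists in place of those labelled siPHF13+TGFβ (0.25). With 1 library left out, regions gained ran from 174 to 3182, regions lost from 521 to 5645, coding genes gained from 6 to 84 and coding genes lost from 26 to 237. With these exchanged lists the same counts were 1654, 104, 65 and 2. With the 50% strongest peaks they were 42, 304, 11 and 115. At a −log10 q of at least 3, regions lost numbered 296 and coding genes lost 14; with a 1 kb window, 1 coding gene was gained and 14 were lost; at equal list length, 240 regions were gained. Gene width calls numbered 10 with log2(bp + 10) and 1 with no filter, against 0. The cause of these shifts was not tested. When 1 library is left out, a call must by definition meet fewer lists. Width and rank calls were 0 under every alternative run, which included all 6 H3K4me3 libraries, centring, and regions with a peak in at least 3 of the 4 lists. With the replicate block, limma made 0 adjusted calls of width, rank or gene width, and the length covered differed by -0.16. The replicate numbers are not stated to pair the libraries; the differences of replicate 1 from 2 in log2 width correlated between the groups with r = 0.454 over 21584 regions. For the 94 genes named or used as markers, 44 values under alternatives moved by more than 1 SD between replicates.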
